A study of Drosophila melanogaster with 8 samples.

Results

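The 4 control libraries of a wing disc RNA-seq series were compared with each other, wt 2 and wt 3 against wt 1 and wt 4. They were chosen by their labels, as all control libraries of a series of 8, with those the submitters marked as used (wt 2 and wt 3) on one side and those marked as not used (wt 1 and wt 4) on the other, 2 per side. The labels give no reason for the marks. All 4 carry the genotype 1151 x w1118, in which the driver line 1151 was crossed to w1118 and no CRISPR transgene is named. As background, 1151 is a GAL4 line active in the adult muscle precursors, a minority of the cells of a whole disc. The other 4 libraries of the series carry 1151>AntpCRISPR, and enter below only where named. Every library came from whole wing discs of wandering larvae raised at 29 °C to about 5 days after egg lay. The labels do not say how many larvae a library pools, whether libraries came from separate animals, or what sex the larvae had. The p-values below therefore reflect only how these 4 libraries vary, which can be technical variation.

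The wing imaginal disc is the epithelial sac that forms the wing and the dorsal thorax of the adult fly, and it carries the adult muscle precursors on its proximal part. Background knowledge places it in the larval body beside trachea, fat body, gut and nervous tissue, from which it is freed by hand. In the wandering stage the steroid hormone ecdysone rises and switches on a timed cascade of nuclear receptors and secreted proteins, while disc cells still grow and divide until pupariation. Tissue genes, stage genes and growth genes are given below in that order.

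Gene reads came to 47980221 in wt 2, 43623878 in wt 3, 44631268 in wt 1 and 43309868 in wt 4, and 13333, 13131, 11711 and 12809 genes had at least 1 read. Levels are given as CPM, read counts scaled to library size with TMM factors over the 4 libraries. The defining genes of the wing disc were present in all 4 and close in level. The wing selector vg stood at 253 and 248 CPM in wt 2 and wt 3, against 241 and 241 CPM in wt 1 and wt 4. The muscle precursor gene twi stood at 23.6 and 24.1 CPM, against 26 and 18.8 CPM. Of 29 tested wing disc epithelium markers and 16 tested adult muscle precursor markers, edgeR called 0 in each, where called means a Benjamini-Hochberg adjusted p under 0.05. At an unadjusted p under 0.05 there were 4 (3 higher and 1 lower in wt 2 and wt 3) and 1 (lower). Of all genes tested, 9.14% were higher and 8.53% lower at that p. DESeq2 and limma-voom also called 0 in each list.

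The wt 2 and wt 3 libraries were far more alike than any other control pair. Over the 6960 genes with at least 400 reads in that pair, the robust SD of the log2 ratio was 0.0592, against 0.0418 from counting alone. The other 5 control pairs had robust SDs from 0.307 (wt 2 and wt 1) to 0.459 (wt 1 and wt 4). In wt 2 and wt 3, 0 of those genes differed by over 2-fold, against 529 of 6774 genes (7.81%) in wt 1 and wt 4. The counts of wt 2 and wt 3 still differed by more than sampling noise, with a chi-square per degree of freedom of 10.8, against 267 to 408 in the other pairs, so they were counted as 2 libraries. The labels do not say how they were prepared, and separate preparations and repeated libraries of 1 RNA cannot be told apart here.

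**Figure D1:**
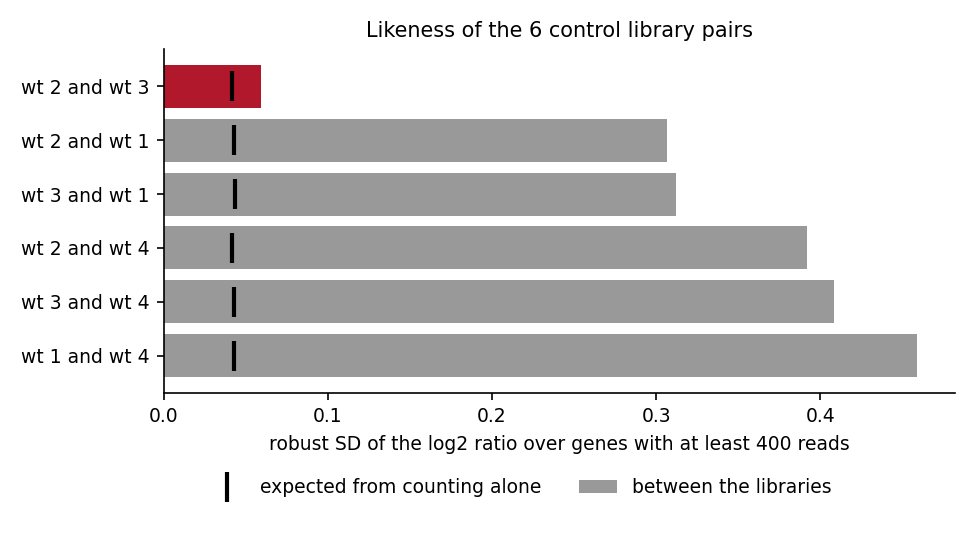
Robust SD of the log2 ratio (horizontal axis) for each of the 6 pairs of control libraries, over genes with at least 400 reads in the pair. Bars show the measured value and black ticks the value expected from counting alone. The bar of wt 2 and wt 3 ends at 0.0592, near its tick at 0.0418, and the other 5 lie between 0.307 and 0.459.

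Most genes called between the pairs were present in wt 2 and wt 3 and nearly missing from wt 1 and wt 4. edgeR's quasi-likelihood test called 54 of 9875 genes tested (0.547%), and all 54 were higher in wt 2 and wt 3 (0.547% of genes tested). It called 0 genes as lower in wt 2 and wt 3 (0%). At an unadjusted p under 0.05, 842 (8.53%) were lower and 903 (9.14%) higher. Over the same 9875 genes DESeq2 called 313 higher and 69 lower, and limma-voom 139 higher and 1 lower. Counts by these tools in the lists below are to be read against those totals. Among the 54 genes that edgeR called, 46 were below 1 CPM in both wt 1 and wt 4, and 6 had 0 reads in both. Together they came to 6311 and 6330 CPM in wt 2 and wt 3, against 816 and 755 CPM in wt 1 and wt 4. With the spread estimated from all 8 libraries of the series, edgeR called 0 genes (714 higher and 709 lower at an unadjusted p under 0.05), and the smallest adjusted p was 0.0673. Without wt 1 or wt 4 the spread rests on wt 2 and wt 3 alone and the count became 7071 or 6473.

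A description that needs no estimate of spread gave the same asymmetry. A gene was taken as separated where the lower library of one pair was at least 2-fold above the higher library of the other, after adding 0.5 CPM. By this measure 246 genes (2.49%) were higher in wt 2 and wt 3, and 1 (0.0101%) was lower, the uncharacterised gene CG11370. CG11370 stood at 32.6 and 31.3 CPM in wt 2 and wt 3, against 75.1 and 66.9 CPM in wt 1 and wt 4, with a log2 change of -1.15 (SE 0.11) and an edgeR adjusted p of 0.0691, which missed the threshold. Without any minimum gap, wt 2 and wt 3 lay above both other libraries in 24.5% of genes and below both in 26.7%, so the excess of higher genes is in the large differences.

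Of the 54 called genes, 9 belong to the list of gut enzymes. Jon65Aiv (FBgn0250815, 3L:6039155-6040135, dm6), a Jonah-family serine protease of the midgut, stood at 1266 and 1280 CPM in wt 2 and wt 3, against 0.202 and 0.425 CPM in wt 1 and wt 4. The groups lie over 3 orders of magnitude apart on the log axis of the tissue plot, and the log2 change of 11.96 (SE 0.39, edgeR adjusted p = 0.00394) became 12.64 without wt 4 and 11.53 without wt 1. Its neighbour Jon65Aiii (FBgn0035665, 3L:6050757-6051690) stood at 567 and 569 CPM, against 0.0252 and 0.0448 CPM. That gene had 54229 reads in wt 2 and wt 3 and 3 reads in wt 1 and wt 4, a ratio of 15951 with a 95% counting interval of 5458 to 77353 (edgeR adjusted p = 0.00119). Intervals of this kind cover counting error between these libraries only. Another gene of the cluster, yip7 (FBgn0040060, 3L:6035216-6036175), also a protease gene, stood at 293 and 299 CPM, against 0 and 0.112 CPM (adjusted p = 0.0146).

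The same split held for another protease cluster and for the trypsins. Jon25Bii (FBgn0031654, 2L:4952243-4953136) stood at 132 and 132 CPM in wt 2 and wt 3, against 0 and 0.0448 CPM in wt 1 and wt 4 (adjusted p = 0.00555), and the adjacent Jon25Bi at 123 and 124 CPM, against 0.126 and 0.0224 CPM (adjusted p = 0.00701). Trypsins cut dietary protein after basic residues, and 4 trypsin genes of 1 cluster on arm 2R were called. alphaTry stood at 22.5 and 21.1 CPM, against 0.0252 and 0.0448 CPM, a read ratio of 613 with a 95% counting interval of 210 to 2975 (adjusted p = 0.00346). deltaTry, at 22.2 and 24.6 CPM, and betaTry, at 8.30 and 7.55 CPM, had 0 reads in both wt 1 and wt 4, so they were at least 657-fold and 223-fold higher against a floor of 3 counts over that pair (adjusted p = 0.0170 and 0.0382). epsilonTry stood at 1.75 and 1.82 CPM, against 0.0252 and 0.0224 CPM, 2 reads in all (adjusted p = 0.0325), and this call was lost without wt 2 (0.164) and without wt 3 (0.156). Close paralogs exist for these proteases, and how reads divide among them is uncertain.

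Of the 53 gut enzyme genes matched, 39 had at least 1 read, 16 had enough reads for the test and 9 of those were called, all higher in wt 2 and wt 3. Most of the 16 entered the test through their reads in wt 2 and wt 3, so this count says little about the list as a whole. The lysozyme gene LysB, at 0.923 and 0.897 CPM, against 0.0252 and 0.0224 CPM, did not pass (adjusted p = 0.0597), nor did the maltase gene Mal-A3, at 0.401 and 0.350 CPM, against 0.0252 and 0 CPM (adjusted p = 0.171). CtsB, a lysosomal protease that many tissues express, stood at 164 and 156 CPM, against 137 and 128 CPM. The summed level of the list was 2603 and 2619 CPM in wt 2 and wt 3, against 140 and 130 CPM in wt 1 and wt 4, 19.4-fold higher, and most of the sum in wt 1 and wt 4 was CtsB. An exact permutation test of that sum gave p = 0.333, the smallest that 6 splits of 4 libraries allow. Of the gut regulators and copper cell genes, 10 of 12 had reads and 3 were tested, with 0 called by edgeR, DESeq2 or limma-voom and 0 at an unadjusted p under 0.05. GATAe, the endodermal GATA factor, stood at 0.702 and 0.832 CPM, against 0.454 and 0.313 CPM. In bulk RNA, fewer cells of a tissue and less RNA per cell cannot be told apart, here and for every tissue below.

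**Figure D2:**
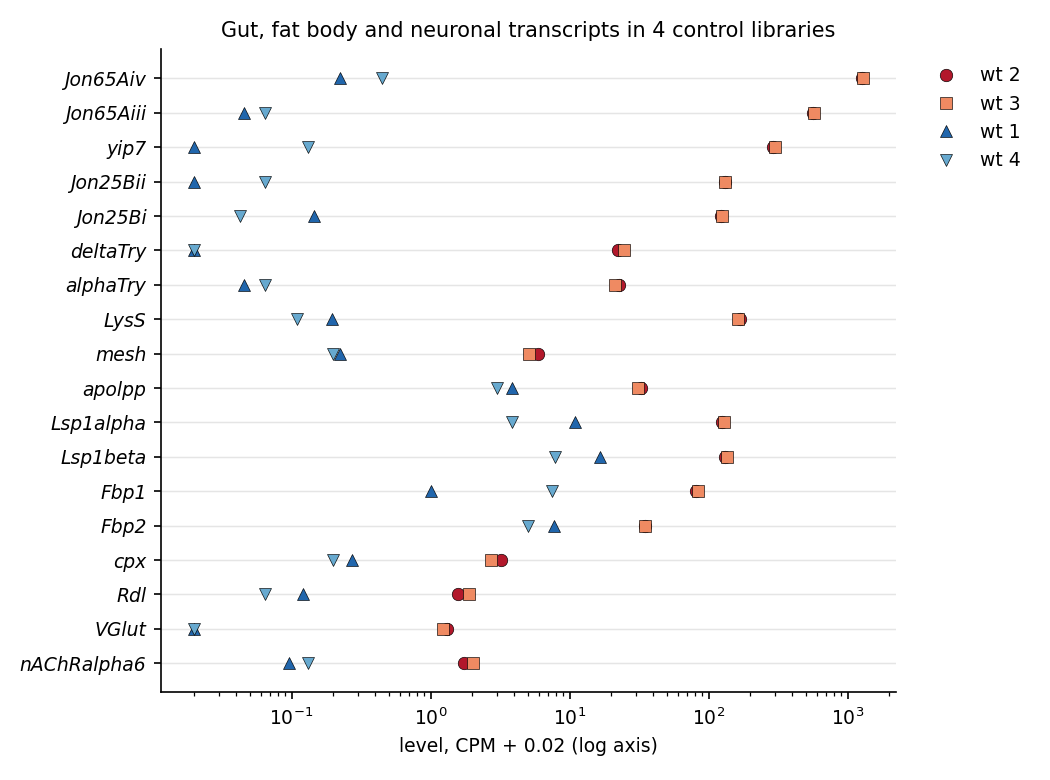
Level of 18 gut, fat body and neuronal genes in wt 2, wt 3, wt 1 and wt 4, as CPM plus 0.02 on a log axis, 1 symbol per library. The wt 2 and wt 3 symbols nearly coincide for every gene shown. For the 9 genes from Jon65Aiv to mesh they lie at 5.10 CPM or above, while wt 1 and wt 4 lie below 0.5 CPM.

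Only 11 of the 54 called genes belong to any of the 22 lists, and 28 of the other 43 have CG names, which are gene numbers given before any function was known. CG6839 (FBgn0036831, 3L:18917581-18919259, overlapping CG18223) stood at 54.4 and 54.9 CPM in wt 2 and wt 3 and had 0 reads in wt 1 and wt 4, so it was at least 1536-fold higher (adjusted p = 0.00701). CG6933 (FBgn0036952, 3L:20218500-20220420), at 51.3 and 52.3 CPM, was at least 1457-fold higher by the same floor (adjusted p = 0.00701). CG10910 and CG4563, also without a read in wt 1 and wt 4, were at least 523-fold and 344-fold higher. Among named genes, LysS (FBgn0004430, 3L:1227747-1228238), a digestive lysozyme gene that the list lacks, stood at 170 and 163 CPM, against 0.176 and 0.0895 CPM (log2 10.28, SE 0.28, adjusted p = 0.00296; 9.89 without wt 4 and 10.81 without wt 1).

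Some called genes have known roles in absorptive epithelia or secretory cells, and were picked here after their values were seen. mesh (FBgn0051004, 3R:31178389-31195762), which encodes a protein of the smooth septate junctions of the midgut, stood at 5.90 and 5.10 CPM, against 0.202 and 0.179 CPM (log2 4.84, SE 0.30, adjusted p = 0.0238). mex1, a midgut gene, stood at 2.25 and 2.54 CPM, against 0.0504 and 0.0671 CPM (adjusted p = 0.0364). Both calls were lost without wt 2 (adjusted p = 0.106 and 0.159) and without wt 3 (0.0664 and 0.173). Phae1, a serine protease gene, stood at 27.0 and 28.9 CPM, against 0 and 0.0224 CPM (adjusted p = 0.00701). IA-2, which encodes a dense-core vesicle protein, stood at 14.8 and 14.2 CPM, against 0.378 and 0.470 CPM (log2 5.08, SE 0.23, adjusted p = 0.00958). The mitochondrial GABA transaminase gene Gabat, overlapping Tom20, stood at 8.86 and 9.19 CPM, against 1.41 and 1.23 CPM (adjusted p = 0.0418), and this call was lost without wt 2 (0.275) and without wt 3 (0.281).

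The called genes were often neighbours. Of the 53 called genes on arms with at least 2 of them, 18 (33.96%) lay within 10000 bp of another called gene, against 1.62% of the tested genes that were not called. The close sets were the Jon25B pair, Phae1 with Phae2 and CG8997 with CG7953 on arm 2L, and the 4 trypsin genes on 2R. On 3L they were Jon65Aiv with yip7, CG6839 with CG3819 and CG6933 with CG17145, and on X CG8664 with CG8661. Gene families in tandem share sequence as well as place. Arm 3L held 13 of the 54, and chromosome 4 held 1.

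A library of the other genotype carried many of the same transcripts. After adding 0.5 CPM, 24 of the 54 called genes stood in CRISPR 3 at 10 or more times the highest other CRISPR library. There Jon65Aiv stood at 613 CPM, against 1.23 CPM in CRISPR 1, 4.65 CPM in CRISPR 2 and 0.208 CPM in CRISPR 4, on a scale fitted over all 8 libraries. CRISPR 3 is marked as not used, so these 24 do not follow the mark across the series. They do not follow genotype either. The count of 24 was not made over all genes tested. Other called genes were low in every CRISPR library. IA-2 stood at 0.301 CPM in CRISPR 3 and at most at 0.941 CPM, in CRISPR 2, and CG9759 at 0 CPM in each.

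A few called genes were well expressed on both sides, and the next 2 were picked for their level and for the size of their change. The long noncoding RNA lncRNA:CR42862 (FBgn0262109, 3L:224106-230964, sharing exonic sequence with CG33229) stood at 2157 and 2156 CPM in wt 2 and wt 3, against 764 and 707 CPM in wt 1 and wt 4 (log2 1.55, SE 0.11, adjusted p = 0.0325). This is the highest level among the called genes in all 4 libraries, not adjusted for length. The call was lost without wt 2 (adjusted p = 0.262), without wt 3 (0.235) and with a correction for transcript length (0.0576), where the log2 change was 1.44. CG6923 had the smallest change of the 54, 75 and 76.5 CPM, against 31.8 and 28.9 CPM, a 2.50-fold difference (adjusted p = 0.0434) that was also lost without wt 2 (0.280) or wt 3 (0.281).

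Of 17 tested fat body genes, 10 lay above both wt 1 and wt 4 in wt 2 and wt 3, against 24.5% of all genes tested, and 1 passed the test. The fat body is the insect counterpart of liver and adipose tissue, and in late larvae it fills the blood with storage proteins. apolpp (FBgn0087002, chromosome 4, 1060969 to 1077273, overlapping Zyx), the precursor of the main lipid carrier of the hemolymph, stood at 32.6 and 31.0 CPM in wt 2 and wt 3, against 3.86 and 3.0 CPM in wt 1 and wt 4. It was the called gene of the list, with a log2 change of 3.21 (SE 0.19, adjusted p = 0.0192; 3.08 without wt 4 and 3.40 without wt 1). DESeq2 called 9 of the 17 higher and limma-voom 4, against 313 and 139 of all 9875 genes tested. At an unadjusted p under 0.05, 10 were higher, against 9.14% of all genes tested. Of the 17, 8 were separated at least 2-fold, all higher in wt 2 and wt 3, against 2.49% of all genes tested. The median log2 change was 1.83 over the 17, against -0.020 over all genes tested.

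Storage protein genes were among the fat body genes with wide gaps. The larval serum protein genes Lsp1alpha (FBgn0002562) and Lsp1beta (FBgn0002563) stood at 125 and 129 CPM and at 131 and 136 CPM in wt 2 and wt 3. In wt 1 and wt 4 they stood at 10.9 and 3.85 CPM and at 16.7 and 7.88 CPM. Neither passed (adjusted p = 0.120 and 0.0995), and wt 1 and wt 4 differed over 2-fold in both. The third subunit gene, Lsp1gamma, stood at 110 and 108 CPM, against 17.2 and 5.24 CPM (adjusted p = 0.173), and the related Lsp2 at 8.34 and 8.80 CPM, against 2.82 and 1.07 CPM (adjusted p = 0.197). Fbp1 (FBgn0000639) is the receptor by which fat body takes storage proteins back up and also a member of the ecdysone and stage list. It had the largest log2 change of the fat body genes named here. It stood at 81.5 and 83.9 CPM, against 0.983 and 7.50 CPM (log2 4.28, SE 0.98, adjusted p = 0.187; 6.42 without wt 4 and 3.46 without wt 1). Fbp2, an alcohol dehydrogenase relative of fat body, stood at 34.7 and 34.8 CPM, against 7.76 and 4.97 CPM (adjusted p = 0.0776). Lipid genes that discs also express did not follow, as with the lipid droplet gene Lsd-2 at 461 and 474 CPM, against 468 and 439 CPM. Pepck1 had no read in any control library.

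Of 33 tested nervous system genes, 23 lay above both wt 1 and wt 4 in wt 2 and wt 3, against 24.5% of all genes tested. Many of them were at low levels, and none passed. Low members such as VGlut, nAChRalpha6 and Rdl entered the test through their reads in wt 2 and wt 3. For them that order was fixed beforehand, so the counts here say less about the list as a whole. edgeR called 0, with 21 higher and 1 lower at an unadjusted p under 0.05 (9.14% and 8.53% of all genes tested). DESeq2 called 13 higher and 1 lower and limma-voom 4 higher, against 313, 69 and 139 of all 9875 genes tested. Of the 33, 12 were separated at least 2-fold, all higher in wt 2 and wt 3, against 2.49% of all genes tested, and the median log2 change was 1.28, also with the 2 members that had no read in wt 1 and wt 4 at their lower bounds. Genes of synapses led. cpx (FBgn0041605), whose protein complexin controls vesicle fusion, stood at 3.17 and 2.71 CPM in wt 2 and wt 3, against 0.252 and 0.179 CPM in wt 1 and wt 4 (log2 3.76, SE 0.36, adjusted p = 0.0643). The acetylcholine receptor subunit gene nAChRalpha6 stood at 1.71 and 2.01 CPM, against 0.0756 and 0.112 CPM (adjusted p = 0.0643). The GABA receptor gene Rdl stood at 1.56 and 1.88 CPM, against 0.101 and 0.0448 CPM (adjusted p = 0.0824). VGlut, the glutamate transporter of motor neuron terminals, stood at 1.28 and 1.20 CPM and had 0 reads in wt 1 and wt 4, at least 35-fold higher (adjusted p = 0.0994). The active zone gene brp stood at 2.01 and 2.25 CPM, against 0.0504 and 0.291 CPM.

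Other members of the nervous system list did not share that pattern. The neuronal RNA-binding gene elav stood at 69.4 and 63.1 CPM, against 71.0 and 76.3 CPM, and the glial gene repo at 0.642 and 0.306 CPM, against 0.302 and 0.336 CPM. Gs2 (FBgn0001145), the glutamine synthetase gene of glia, ran the other way, at 19.6 and 19.9 CPM in wt 2 and wt 3, against 38.8 and 36.6 CPM in wt 1 and wt 4 (log2 -0.93, SE 0.10, adjusted p = 0.0824). Summed over the list, the level was 848 and 830 CPM, against 896 and 848 CPM, since a few widely expressed members such as unc-13 make up most of it.

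Markers of the remaining larval tissues did not pass in edgeR. The hemocyte list had 0 of 15 called (2 at an unadjusted p under 0.05, and 0 by DESeq2 and by limma-voom), with a median log2 change of 0.57. Of the 15, 14 had a positive log2 change. In 7 wt 2 and wt 3 lay above both wt 1 and wt 4 and in 0 below both, against 24.5% and 26.7% of all genes tested. Pxn lay above both, at 13.6 and 15.6 CPM, against 11.4 and 7.05 CPM (adjusted p = 0.340). The plasmatocyte gene Hml stood at 16.7 and 17.9 CPM in wt 2 and wt 3, against 19.4 and 6.11 CPM in wt 1 and wt 4, so the controls overlapped in that gene. Larval muscle had 0 of 25 called (3 unadjusted, 2 higher and 1 lower) and trachea 0 of 10 (0 unadjusted). Cuticle had 0 of 16 (2 unadjusted, 1 higher and 1 lower) and ring gland and tubule 0 of 14 (1 unadjusted, higher). DESeq2 and limma-voom called 0 in each. The unadjusted counts of this paragraph are to be read against 9.14% higher and 8.53% lower of all genes tested. The median log2 changes of these 4 lists were 0.18, 0.063, 0.020 and 0.12. The myosin light chain gene Mlc1 stood at 19.7 and 21.7 CPM, against 16.1 and 13.4 CPM, and the larval cuticle gene Lcp2 at 32.2 and 32.7 CPM, against 24.8 and 23.2 CPM (adjusted p = 0.256 and 0.192). Other members of these 2 lists went the other way. Tm1 stood at 752.5 and 721.6 CPM, against 926.8 and 917.4 CPM, and Cpr97Eb at 0.421 and 0.481 CPM, against 1.26 and 0.917 CPM (adjusted p = 0.254 and 0.228). The sex list had 0 of 9 called (1 unadjusted, and 0 by DESeq2 and by limma-voom). Its dosage compensation RNA lncRNA:roX2, made in males, which did not pass, stood at 70.8 and 61.3 CPM, against 23.4 and 48.2 CPM.

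**Figure D3:**
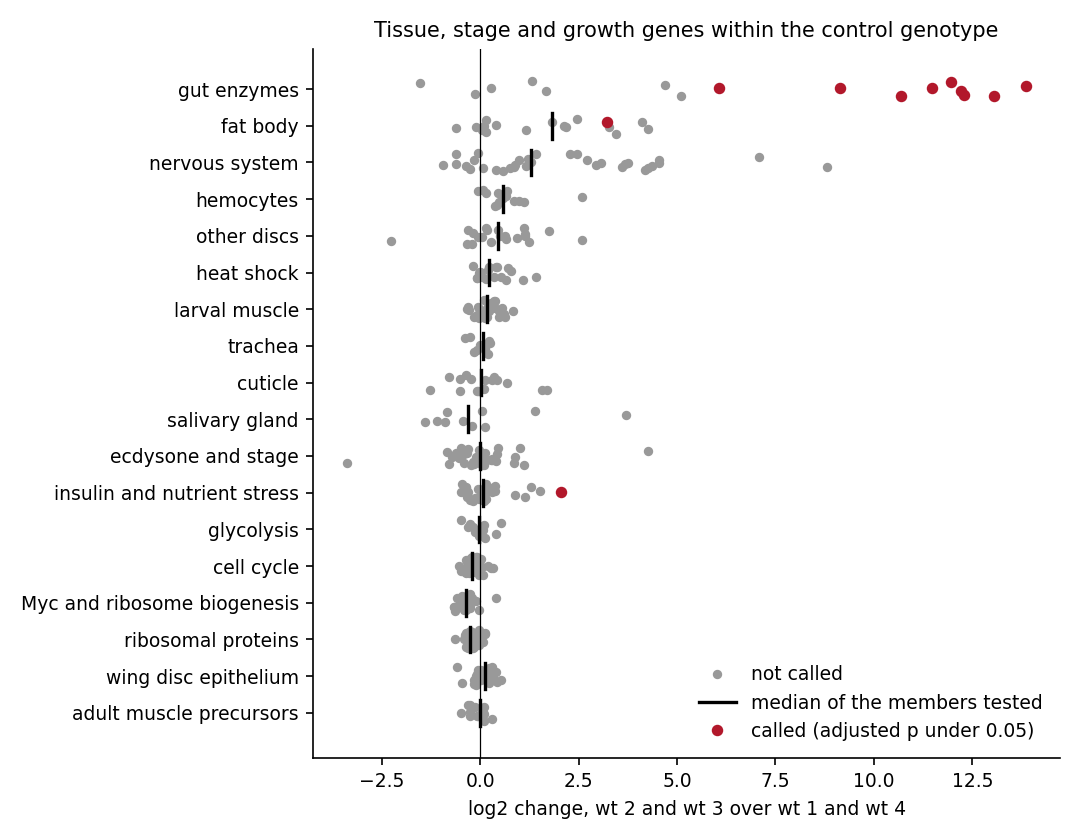
Log2 change of wt 2 and wt 3 over wt 1 and wt 4 for each tested member of 18 lists (points), with called members in red and the median of each list as a black bar, omitted for gut enzymes. Red points are in the gut enzyme, fat body and insulin lists (9, 1 and 1), all to the right of 0. Most points of the 3 growth lists lie left of 0.

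A number of stage genes had another order of the libraries, with wt 2 and wt 3 between wt 1 and wt 4. Hr4 (FBgn0264562), an orphan nuclear receptor gene of the ecdysone cascade that overlaps PIG-K, stood at 39.2 and 39.1 CPM in wt 2 and wt 3, against 2.55 CPM in wt 1 and 134 CPM in wt 4. Blimp-1 (FBgn0035625), a repressor that times the prepupal response, stood at 68.7 and 67.4 CPM, against 1.11 and 149 CPM. The ecdysone-inducible gene ImpE2 (FBgn0001254), active in discs as they evert, stood at 1337 and 1343 CPM, against 328 and 4106 CPM. In all 3 genes wt 1 was lowest and wt 4 highest, and wt 2 and wt 3 lay far from both and nearly on each other.

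Further hormone response genes kept that order. ImpE3 stood at 58.0 and 58.3 CPM in wt 2 and wt 3, against 26.1 and 182 CPM in wt 1 and wt 4, and the nuclear receptor gene Eip78C at 37.6 and 37.5 CPM, against 9.30 and 99.3 CPM. The receptor gene Hr3, needed for the turn to the prepupal program, stood at 0.782 and 0.853 CPM, against 0.126 and 16.9 CPM. The opposite order was seen in chinmo (FBgn0086758), a transcription factor of juvenile state, at 108 and 109 CPM, against 237 and 30.0 CPM. EcR (FBgn0000546), the ecdysone receptor, stood at 224 and 211 CPM, against 315 and 176 CPM, and ftz-f1, the competence factor of the prepupa, at 44.2 and 42.5 CPM, against 55.6 and 9.91 CPM. In these 3 genes wt 1 was highest and wt 4 lowest. Other members were level in all 4 libraries, such as the early gene Eip75B at 298 and 300 CPM, against 301 and 274 CPM.

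Few stage genes were called between the pairs. Of 35 tested members edgeR and limma-voom called 0 and DESeq2 called 3 higher, against 313 of all 9875 genes tested. At an unadjusted p under 0.05 were 4, 3 higher and 1 lower, against 9.14% and 8.53% of all genes tested. The median log2 change was -0.010. Where wt 1 and wt 4 lie far apart the test can hardly call a gene, so a lack of calls does not show equal levels. Between wt 1 and wt 4, by contrast, 15 of the 35 were at least 2-fold apart between wt 1 and wt 4, against 8.77% of all genes tested, and 13 of them were higher in wt 4. In 12 of the 15 both wt 2 and wt 3 lay between, a share near the 84.3% of all genes that far apart. The members with the smallest p were not of this kind. ImpL2, which encodes a secreted binder of insulin-like peptides and is ecdysone-inducible, stood at 150 and 147 CPM, against 73.7 and 87.3 CPM (log2 0.88, SE 0.13, adjusted p = 0.133). vri, a circadian and growth transcription factor, stood at 131 and 131 CPM, against 73.0 and 58.0 CPM (adjusted p = 0.136).

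Salivary glue genes were also highest in wt 4. Glue proteins are made by the late larval salivary gland under ecdysone and fix the pupa to its support. Sgs3 (FBgn0003373) stood at 10.1 and 8.97 CPM in wt 2 and wt 3, against 1.19 and 34.0 CPM in wt 1 and wt 4, and Sgs4 at 3.47 and 3.74 CPM, against 0.429 and 12.4 CPM. Of 10 tested salivary gland members 7 were at least 2-fold higher in wt 4 than in wt 1, against 446 of all 9875 genes tested. wt 2 and wt 3 lay between in all 7, as in 84.3% of all genes at least 2-fold apart. edgeR and limma-voom called 0 of the 10 and DESeq2 1. At an unadjusted p under 0.05, 2 were higher in wt 2 and wt 3, against 9.14% of all genes tested. The gland's own transcription factor gene sage did not keep that order, at 10.6 and 10.3 CPM, against 4.59 and 3.36 CPM (adjusted p = 0.151).

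**Figure D4:**
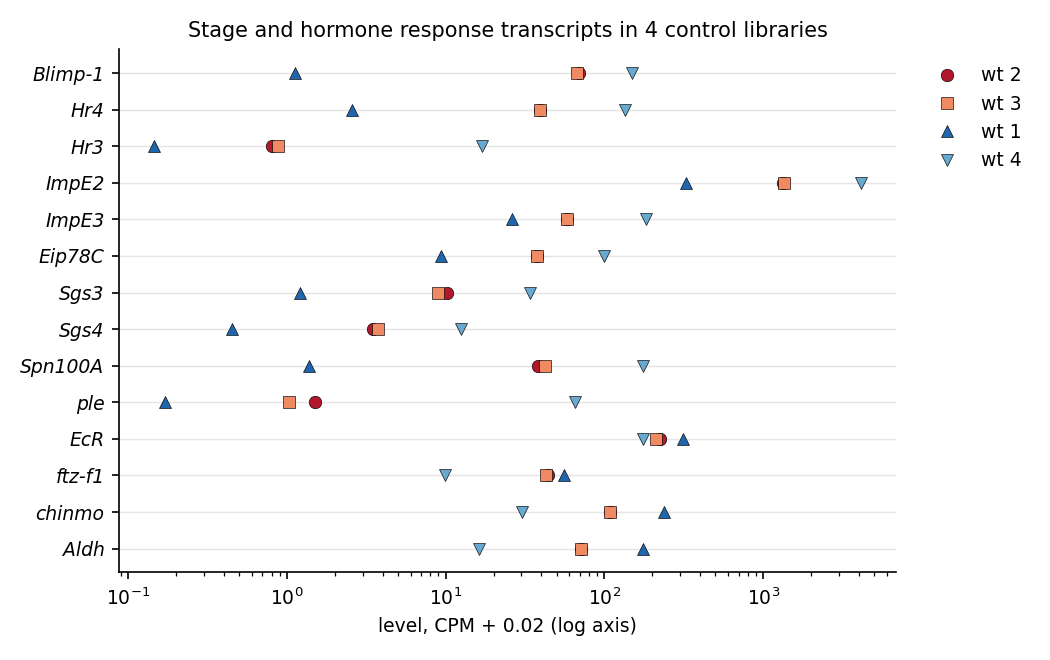
Level of 14 genes in wt 2, wt 3, wt 1 and wt 4, as CPM plus 0.02 on a log axis, 1 symbol per library. They are stage and hormone response genes, salivary glue genes and genes of wide ratio between wt 1 and wt 4. They were picked after their values were seen, so the order shown is a description only. Stage genes without that order, such as Eip75B, ImpL2 and vri, are not shown. In the upper 10 genes wt 1 is lowest and wt 4 highest, in the lower 4 wt 1 is highest and wt 4 lowest, and wt 2 and wt 3 lie between them in every gene shown.

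Levels of wt 2 and wt 3 between those of wt 1 and wt 4 were also found beyond these lists. Of all 9875 genes tested, 420 were at least 2-fold higher in wt 1 than in wt 4 and 446 at least 2-fold lower, 8.77% together, while 0 were 2-fold apart between wt 2 and wt 3. In 730 of these 866 genes (84.3%) both wt 2 and wt 3 lay between wt 1 and wt 4. In 91 they lay above both and in 3 below both. Of the 730, 362 had wt 1 highest and 368 had wt 4 highest. The 866 were picked for a wide gap between wt 1 and wt 4, which by itself favours values between them. The share of 84.3% is therefore a description only. Among the 5 genes of widest ratio at the wt 4 end was ple, the tyrosine hydroxylase gene, at 1.5 and 1.0 CPM in wt 2 and wt 3, against 0.151 and 65.2 CPM in wt 1 and wt 4. The serpin gene Spn100A stood at 38.2 and 42.3 CPM, against 1.36 and 175 CPM. Among the 5 at the wt 1 end were Nplp4, a neuropeptide-like precursor gene, at 15.5 and 15 CPM, against 100 and 7.54 CPM, and Aldh, an aldehyde dehydrogenase gene, at 71.6 and 70.8 CPM, against 175 and 16.3 CPM. These genes were ranked by the ratio of wt 1 and wt 4, so that ratio is a description.

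Transcript length went with the levels of wt 4. Over 9672 genes with a known exonic length, the deviation of wt 4 from the median of the 4 libraries, in log2 of CPM plus 0.5, fell with log2 length (Spearman's rho -0.396 across genes, which are not independent replicates). In wt 2, wt 3 and wt 1 rho was 0.174, 0.198 and 0.114. The log2 change of wt 2 and wt 3 over wt 1 and wt 4 had a rho of 0.225 with length, and its median was -0.16 in the 2418 genes of shortest exonic length and 0.091 in the 2418 of longest. The part of length in the stage and growth genes was not tested gene by gene, but medians after a length correction are given with the growth lists.

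Most genes of 3 growth lists had negative log2 changes, and none of them was called. Ribosome biogenesis genes, many of them targets of the growth regulator Myc, had 0 of 32 called by edgeR and 0 by limma-voom. DESeq2 called 5 lower, against 69 of all 9875 genes tested. At an unadjusted p under 0.05, 11 were lower, against 8.53% of all genes tested. wt 2 and wt 3 were below both wt 1 and wt 4 in 24 of the 32, against 26.7% of all genes tested, and the median log2 change was -0.37 (-0.30 with the length correction and -0.21 without wt 1). Polr1E (FBgn0038601, 3R:18300195-18301728), a subunit gene of RNA polymerase I, stood at 35 and 34.2 CPM, against 56.3 and 53.5 CPM (log2 -0.67, SE 0.10, adjusted p = 0.127). NHP2, of the particles that modify ribosomal RNA, stood at 102 and 103 CPM, against 164 and 158 CPM (adjusted p = 0.139). Nop56, a core protein gene of box C/D particles, stood at 264 and 278 CPM, against 447 and 392 CPM (adjusted p = 0.173). Myc itself stood at 398 and 393 CPM, against 465 and 338 CPM.

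Ribosomal protein genes differed by small amounts, nearly all in 1 direction. Of 64 tested, edgeR, DESeq2 and limma-voom called 0, 21 were lower at an unadjusted p under 0.05 (8.53% of all genes tested), and 55 were below both wt 1 and wt 4 in wt 2 and wt 3 (26.7% of all). Their median log2 change was -0.25, and -0.12 with the length correction. Summed, they came to 103700 and 103500 CPM in wt 2 and wt 3, against 124200 and 118000 CPM in wt 1 and wt 4. RpL38 stood at 981 and 869 CPM, against 1583 and 1322 CPM (adjusted p = 0.188), while RpL22, RpL3 and RpL4 were the members with a positive log2 change, each lying between wt 1 and wt 4.

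Cell cycle genes depended on wt 1. Among 45 tested, edgeR called 0 (6 had an unadjusted p under 0.05, all lower in wt 2 and wt 3, against 8.53% of all genes tested), and 1 was called by DESeq2 and 0 by limma-voom, and 18 were below both wt 1 and wt 4, against 26.7% of all. The mean log2 level of the list was 6.93 and 6.94 in wt 2 and wt 3, against 7.25 in wt 1 and 6.91 in wt 4, so wt 1 stood apart. The median log2 change of -0.20 became 0.020 without wt 1 and -0.31 without wt 4, and was -0.17 with the length correction. A few mitotic genes lay below both, as with the kinase gene Cdk1 (FBgn0004106) at 150 and 145 CPM, against 219 and 207 CPM (log2 -0.53, SE 0.11, adjusted p = 0.173), and its partner CycA (FBgn0000404) at 297 and 296 CPM, against 436 and 402 CPM (adjusted p = 0.184). The mitotic phosphatase gene stg lay between, at 282 and 280 CPM, against 357 and 183 CPM. With library totals in place of TMM factors, chosen after seeing the data, the median of all genes was 0.10 and those of ribosome biogenesis, ribosomal protein and cell cycle genes were -0.24, -0.13 and -0.064.

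**Figure D5:**
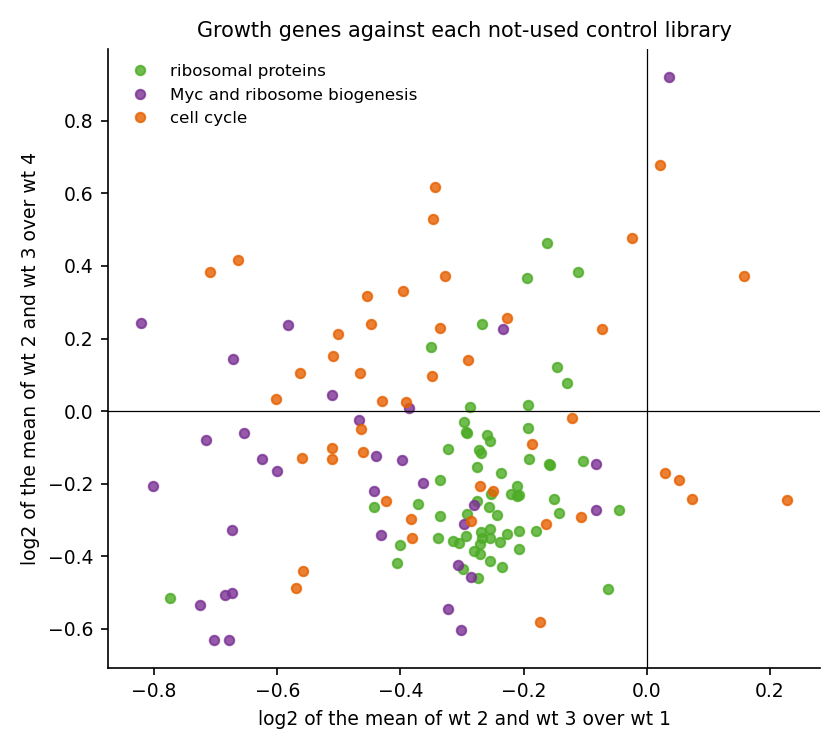
Members of 3 growth lists by the log2 ratio of the mean of wt 2 and wt 3 to wt 1 (horizontal axis) and to wt 4 (vertical axis), 1 point per gene. Ribosomal protein and ribosome biogenesis genes lie mostly in the lower left, below 0 on both axes (55 of 64 and 24 of 32 were below both wt 1 and wt 4). Cell cycle genes lie mostly left of 0 but on both sides of 0 on the vertical axis (18 of 45 were below both).

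Among genes of insulin signalling and nutrient stress 1 of 32 was called. Sesn (FBgn0034897, on arm 2R, overlapping CG46429 and mir-4979), whose product sestrin restrains TOR signalling under stress, stood at 16.2 and 18.1 CPM in wt 2 and wt 3, against 4.26 and 4.05 CPM in wt 1 and wt 4. Its log2 change was 2.04 (SE 0.16, adjusted p = 0.0434), and the call was lost without wt 2 (0.262) and without wt 3 (0.347) and with library totals (0.0526). On the scale fitted over all 8 libraries, Sesn stood between 3.61 CPM (CRISPR 4) and 5.06 CPM (CRISPR 3) in the CRISPR libraries. Thor, which encodes the translation inhibitor 4E-BP, stood at 9.59 and 9.78 CPM, against 3.13 and 5.66 CPM (adjusted p = 0.241). The transcription factor gene sug stood at 2.09 and 1.95 CPM, against 0.958 and 0.694 CPM (adjusted p = 0.203). The list's median log2 change was 0.082, and DESeq2 called 2 and limma-voom 1. At an unadjusted p under 0.05 were 10 of 32, 6 higher and 4 lower, against 9.14% and 8.53% of all genes tested. Glycolysis had 0 of 14 called (0 by DESeq2 and by limma-voom), with a median log2 change of -0.032. At an unadjusted p under 0.05 were 4, 2 higher and 2 lower, against 9.14% and 8.53% of all genes tested. Gapdh1 stood at 249 and 247 CPM, against 353 and 346 CPM (adjusted p = 0.180). Pgi went the other way, at 215.5 and 214.4 CPM, against 170.3 and 126.4 CPM (adjusted p = 0.262).

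Heat shock and detoxification genes did not pass either. Of 20 tested heat shock genes edgeR and limma-voom called 0 and DESeq2 2. At an unadjusted p under 0.05 were 5, all higher in wt 2 and wt 3, against 9.14% of all genes tested. In 9 of the 20 wt 2 and wt 3 lay above both wt 1 and wt 4 and in 0 below both, against 24.5% and 26.7% of all. The small heat shock protein gene Hsp23 (FBgn0001224) stood at 7542 and 7547 CPM in wt 2 and wt 3, against 4854 and 4694 CPM in wt 1 and wt 4 (log2 0.66, SE 0.10, adjusted p = 0.140). The co-chaperone gene stv stood at 464 and 469 CPM, against 178 and 264 CPM (adjusted p = 0.181). The inducible Hsp70 genes, near-identical copies whose counts are uncertain, did not follow, with Hsp70Bb at 596 and 576 CPM, against 802 and 372 CPM. Detoxification and antimicrobial genes had 0 of 18 called (DESeq2 3 and limma-voom 1). At an unadjusted p under 0.05, 4 were higher, against 9.14% of all genes tested. Of 30 members matched only these 18 were tested. Cyp9b2, Cyp12a4 and TotA entered the test through their reads in wt 2 and wt 3, which favours that direction. The count therefore says little about the list, whose median log2 change was -0.14. Cyp12a4, a mitochondrial P450 gene, stood at 2.81 and 2.89 CPM, against 0.202 and 0.291 CPM (adjusted p = 0.0694).

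Markers of other discs were checked as a sign of what was dissected. Of 21 tested, edgeR and limma-voom called 0 and DESeq2 1. At an unadjusted p under 0.05, 5 were higher and 1 lower, against 9.14% and 8.53% of all genes tested. In 11 of the 21 wt 2 and wt 3 lay above both wt 1 and wt 4 and in 2 below both, against 24.5% and 26.7% of all. The Hox gene abd-A, of the abdomen, stood at 0.401 and 0.350 CPM in wt 2 and wt 3, against 1.21 and 2.39 CPM in wt 1 and wt 4 (log2 -2.26, SE 0.48, adjusted p = 0.183; -2.66 without wt 1 and -1.64 without wt 4). The leg and antennal gene Sp1 stood at 48.3 and 47.3 CPM, against 14.6 and 29.0 CPM (adjusted p = 0.250), and the eye gene toy at 1.95 and 1.36 CPM, against 0.630 and 0.358 CPM (adjusted p = 0.208). The median log2 change of the list was 0.46, 0.16 without wt 1 and 0.95 without wt 4. The part of other larval tissue in the gene differences of this comparison was not tested.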

How the data were processed

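Read counts per gene were deposited by the authors, 1 table per library. Per the submitters' processing notes, FastQC, Trimmomatic 0.36, STAR and DESeq2 were used with the dm6 genome. Which program counted the reads, and whether it used strand, is not given in the sources used here, so overlapping genes may share reads. The labels' protocols name a DNA-Seq library kit. Of 17559 gene IDs, 17253 matched a symbol. The 5 summary rows were left out: 1.21% to 1.74% of all tallied reads for no feature, 3.08% to 3.32% for ambiguous reads and 3.11% to 3.55% for alignments that were not unique.

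Genes passing filterByExpr (minimum count 10, minimum total 15) were tested in R 4.3.3 with edgeR 4.0.16, using TMM factors (0.889 to 1.05) and the quasi-likelihood test over the 4 control libraries, two-sided. Each log2 change is wt 2 and wt 3 over wt 1 and wt 4, with 2 residual degrees of freedom and a biological coefficient of variation of 24.1%. P-values were Benjamini-Hochberg adjusted over all 9875 genes. DESeq2 1.42.0 and limma 3.58.1 gave alternatives. Figures used Python 3.11.15 and matplotlib 3.10.9. At these depths 3 counts in a library equal 0.0625 to 0.0693 CPM by library totals, without TMM factors. On the TMM scale of the levels, 3 counts equal 0.0756 CPM in wt 1 and 0.0671 CPM in wt 4. Counting intervals and floors cover counting error only.

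The members and the 22 gene lists were chosen with earlier results of these data known, and of 644 list entries 608 matched. Named genes were the 10 of largest change each way among called genes with an average log2 CPM of at least 1, filled up by smallest p, the 4 of smallest p in each list, and the 5 widest ratios within each pair. Others were chosen for their known role or their pattern after their values were seen.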

Additional observations from a re-analysis of the deposited data

How the results depend on the processing

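The 54 calls were all shared by RLE factors (54), no filter beyond 1 read (98), DESeq2 (382) and limma-voom (140). Quality weights gave 50 calls, 34 of them shared, the length correction 71 with 53 shared, and wt 2 and wt 3 summed to 1 library 44 with 38 shared. The spread of all 8 libraries gave 0. Leaving out 1 library gave 41 to 7071, and 36 genes were called each time. Library totals in place of TMM factors, chosen after seeing the data, gave 62 with 52 shared, all higher. Without wt 1 or wt 4 the lone library is assumed to vary like wt 2 and wt 3 (coefficient of variation 2.37%). Of the 71 genes whose log2 change was recomputed, 0 turned sign in any alternative. Genes separated at least 2-fold numbered 247, and 506 or 111 with 0.1 or 2 CPM added. The robust SD of wt 2 and wt 3 was 0.0497 to 0.0673 under other read minimums. The gut enzyme sum kept its direction without TMM factors (21.1-fold).

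The ribosomal protein median was -0.23 with RLE factors and DESeq2, -0.24 with no filter, -0.13 with library totals and -0.12 with the length correction, and the nervous system median 1.16 with that correction. With library totals the ribosome biogenesis median was -0.24 and that of heat shock genes 0.35, against 0.21 with TMM factors, and that of all genes 0.10, against -0.020. LysB, Fbp2, Lsp1beta and cpx passed with library totals, and Sesn did not. Leaving out 1 library moved the medians between -0.26 and -0.22 for ribosomal proteins, -0.42 and -0.21 for ribosome biogenesis, -0.31 and 0.020 for cell cycle, 1.11 and 1.76 for nervous system, 1.63 and 2.0 for fat body, 0.091 and 0.45 for heat shock, 0.38 and 0.93 for hemocytes, and 0.16 and 0.95 for other discs. The cell cycle median thus turned sign without wt 1, and the cause was not tested. No paired analysis was possible because wt 2 and wt 3 share no replicate number with wt 1 and wt 4. Low genes near 3 counts are limited by depth.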

Other observations

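The 13 protein genes of the mitochondrial genome, taken up after their values were seen, were all lower in wt 2 and wt 3 than in both wt 1 and wt 4, as were 26.7% of all genes tested. Summed, they came to 16240 and 12350 CPM in wt 2 and wt 3, against 26720 and 22000 CPM in wt 1 and wt 4. Of the 16 genes of that genome tested, mt:lrRNA, a ribosomal RNA gene, did not follow, at 20910 and 16250 CPM, against 23680 and 20300 CPM. In edgeR mt:lrRNA, mt:srRNA and mt:tRNA:Ala-TGC had unadjusted p of 0.248, 0.0808 and 0.139. The cytochrome oxidase subunit gene mt:CoI stood at 5556 and 4199 CPM, against 8449 and 7501 CPM. All 13 had an unadjusted p under 0.05 in edgeR (8.53% of all genes tested were lower at that p) and 0 were called, with log2 changes from -1.16 to -0.69. Some are also among the widest differences between wt 2 and wt 3, with mt:Cyt-b at 2212 CPM in wt 2 and 1628 CPM in wt 3. There mt:ND5 stood at 541 and 396 CPM. How the DNA library kit and the RNA preparation bear on these genes was not tested.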
